A study of Mus musculus with 12 samples.

Results

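Metallothioneins and antioxidant response genes were followed in splenic CD4+ T cells as a set of 10 genes among the 55414 gene records counted. The set holds the metallothioneins Mt1 and Mt2, the heme and quinone enzymes Hmox1 and Nqo1, the thioredoxin pathway genes Txnrd1, Srxn1 and Prdx1, the glutathione synthesis genes Gclm and Gclc, and the superoxide dismutase Sod1. The 10 genes were picked by name with their values in these libraries already known, so their levels and differences are given as a description. Counts of members past a threshold are set beside the share of all genes that passed it, and no test of the members is offered as evidence. The CD4+ T cells were enriched by negative selection, in which other cell types are removed. They came from wild-type male BALB/c mice of 18 weeks, either without ligatures (CTL group) or 14 days after silk ligatures were tied around maxillary molars to induce periodontitis (LIP group). On day 0 the cells were sequenced uncultured, and on day 2 after 2 days of culture in which IL-2 was combined with antibodies to TCRβ and CD28. Each group had 3 libraries on each day, 12 in all. The labels number them 88, 89 and 94 (CTL) and 92, 93 and 94 (LIP) on day 0, and 92, 93 and 97 (CTL) and 90, 96 and 97 (LIP) on day 2. The sources used here do not say whether a library is 1 mouse or a pool, so the spread between libraries may in part be technical.

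Metallothioneins are small cysteine-rich proteins that bind zinc and copper, and their genes are switched on by the zinc-sensing factor MTF-1 at metal response elements. The other members are textbook targets of NRF2, a transcription factor that KEAP1 holds at a low level until oxidants or electrophiles modify KEAP1, and that binds antioxidant response elements together with small MAF proteins. Hmox1 is also repressed by BACH1 until heme releases it. In activated T cells, glutathione and thioredoxin keep the cytosol reduced and supply the reducing power for deoxyribonucleotide synthesis.

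The libraries held between 6249018 and 12866718 counts, and 3 counts, the limit that a count of 0 allows, corresponded to between 0.269 and 0.452 CPM, the counts scaled to the size of the library by TMM. This limit covers counting error only. Cd4 lay between 422 and 645 CPM in the 12 libraries and Cd8a at or below 2.25. The summed level of 6 genes of stimulated T cells ranged from 249 to 378 CPM on day 0 and from 7223 to 8006 on day 2. One library stood apart from its group on day 2, LIP 90, and the values that rest on it are given with and without it. The labels name anti-CD29 antibody in place of anti-CD28 for CTL 93 and LIP 96 of day 2, and anti-CD30 for CTL 97 and LIP 97, so that the number rises by 1 from sample to sample in the same way in both groups, while the treatment protocol of all samples names anti-CD28. The labels and the methods of the study also give different concentrations of IL-2 and anti-TCRβ antibody.

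Stretches that match the motifs of these 2 regulatory systems are shown first. Promoter windows reached from 250 bases before to 50 bases after the start, came from RefSeq (build GRCm38.p6) and were placed in GRCm39 by exact match. A window was found for 8 of the 10 members, all but Hmox1 and Gclc, with 3 windows for Txnrd1 and 1 for each of the others. A gene was counted where any of its windows held a match. The core of the antioxidant response element, TGACNNNGC on either strand, occurred in 6 of these 8 members (6 of their 10 windows) and in 13.99% of the 27025 genes with a window (12.4% of 32851 windows). Restricted to the 250 bases before the start, it was found in 5 of 8 members and 11.5% of all genes. These 5 matches are printed with 10 bases on each side, in the orientation of the motif and with its core in capitals.
Mt2: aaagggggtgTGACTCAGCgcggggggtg
Prdx1: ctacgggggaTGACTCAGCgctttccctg
Txnrd1: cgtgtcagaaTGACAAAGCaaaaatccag
Gclm: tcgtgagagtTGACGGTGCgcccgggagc
Sod1: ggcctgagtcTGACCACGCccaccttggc
Mt2 and Prdx1 shared the same 9 letters of core. The stretches lie at chr8:94899157-94899185 on the plus strand for Mt2, and on the minus strand at chr4:116542653-116542681 for Prdx1, chr10:82694938-82694966 for Txnrd1, chr3:122039062-122039090 for Gclm and chr16:90017584-90017612 for Sod1. For Mt2, Prdx1, Txnrd1 and Sod1, GENCODE begins the gene upstream of the match, so that these matches lie inside the gene in that annotation. In Srxn1 the match, GCTAGGTCA on the gene's strand, lay 28 to 36 bases after the start.

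A loose pattern for the metal response element, TGCNCNC on either strand with any base at N, was used, and a stricter core was not searched. The pattern is short and occurred in 53.6% of all genes with a window, and in 6 of 8 members. Mt2 had 6 matches in its window, and 0.792% of all genes had a window with 5 or more. Mt1, Srxn1 and Gclm had 3 each, and 8.04% of all genes had a window with 3 or more. One of the matches of Mt1 lay before the start, and the upstream window of Mt1, chr8:94905467-94905716 on the plus strand of GRCm39, is printed with this match in capitals.
Mt1: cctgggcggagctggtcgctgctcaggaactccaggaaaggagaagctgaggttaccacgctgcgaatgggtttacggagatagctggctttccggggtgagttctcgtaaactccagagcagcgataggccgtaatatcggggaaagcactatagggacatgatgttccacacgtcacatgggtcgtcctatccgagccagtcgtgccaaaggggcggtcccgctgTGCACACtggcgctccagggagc
The match covered the bases from 23 to 17 before the start, and the other 2 began 2 and 20 bases after it. Mt1 had 1 window, at an annotated start, and only 50 bases after that start were searched. Elements of either kind in a promoter farther downstream would be missed. A match of letters is not evidence of binding.

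The metallothioneins were at the floor of detection in uncultured cells. On day 0, Mt1 was counted 0, 1 and 4 times in CTL 88, 89 and 94, against 2, 1 and 1 times in LIP 92, 93 and 94, and Mt2 had at most 1 count in any of the 6. Mt1 (ENSMUSG00000031765, chr8:94905710-94906955) and Mt2 (ENSMUSG00000031762, chr8:94898819-94900207) are neighbours on the plus strand of chromosome 8, with 5502 bases between them. The longest run of bases that any transcript of one shares with any transcript of the other is 20, far below the read length. Mt3 and Mt4, the neighbouring metallothionein genes known from brain and squamous epithelium, had at most 1 count in any library.

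On day 2, Mt1 was at 4.44, 3.94 and 3.18 CPM in CTL 92, 93 and 97, and at 19.97, 1.40 and 1.68 CPM in LIP 90, 96 and 97. LIP 90 thus lay above and the other two LIP libraries below every CTL library. The counts behind these levels were 42, 33 and 28 in the CTL group and 223, 15 and 13 in the LIP group. Mt2 showed the same order at a lower level, counted 29, 3 and 0 times in LIP 90, 96 and 97, beside 13, 7 and 5 times in CTL 92, 93 and 97. The difference in Mt1 between the groups on day 2 was 1.00 ± 0.87 (log2 fold change of LIP over CTL ± SE, n = 3 per group) and became -1.31 ± 0.34 without LIP 90. Its direction therefore rested on 1 library. Between the days, every Mt1 library of day 2 lay above every library of day 0 in both groups, with a log2 fold change of 4.03 ± 1.22 in CTL and 5.31 ± 1.19 in LIP, the latter 2.97 ± 0.67 without LIP 90. These fitted values depend on the handful of counts of day 0. Mt2 was too low for the test in every comparison.

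Hmox1 (ENSMUSG00000005413, chr8:75820241-75827217) encodes heme oxygenase 1, which breaks heme down to biliverdin, iron and carbon monoxide. On day 0 it was at 1.36, 0.72 and 0.66 CPM in CTL 88, 89 and 94, against 1.10, 1.55 and 1.74 in LIP 92, 93 and 94, from 5 to 13 counts per library. The groups overlapped at these low levels. On day 2 it was at 5.50, 5.85 and 5.22 CPM in CTL 92, 93 and 97, against 6.72, 12.5 and 10.5 in LIP 90, 96 and 97. All LIP libraries lay above all CTL libraries, and LIP 90 was the closest to them, the reverse of its place for Mt1. The log2 fold change of LIP over CTL on day 2 was 0.83 ± 0.26 with all 6 libraries and 1.08 ± 0.20 without LIP 90. Between the days the log2 fold change was 2.61 ± 0.34 in CTL and 2.75 ± 0.31 in LIP, with no overlap in either group.

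Macrophages of the splenic red pulp, which recycle red blood cells, carry much Hmox1, and their markers were examined beside it. Of the 7 markers, Cd5l, C1qa, C1qb and C1qc had 0 counts in every library of day 2. Their summed level was between 22.8 and 100 CPM on day 2, of which Axl made up 22.1 to 97.6, and between 7.58 and 14.9 CPM on day 0. The sum was 77.3, 100 and 43.4 CPM in CTL 92, 93 and 97, against 39.1, 22.8 and 47.0 in LIP 90, 96 and 97. On day 2, Spic was at or below 2.39 CPM and Vcam1 at or below 0.26 in every library. The 8 erythroid markers summed to at most 4.07 CPM in any library. What part macrophages or erythroid cells had in the level of Hmox1 was not tested.

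Nqo1 (ENSMUSG00000003849, chr8:108113835-108129934), a quinone reductase widely used as a readout of NRF2, was barely expressed. It had at most 3 counts in any library of day 0. On day 2 its counts were 9, 5 and 1 in LIP 90, 96 and 97 (0.81, 0.47 and 0.13 CPM), beside 7, 6 and 11 in CTL 92, 93 and 97 (0.74, 0.72 and 1.25 CPM). The groups overlapped, and the gene was too low for the test in every comparison.

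**Figure D1:**
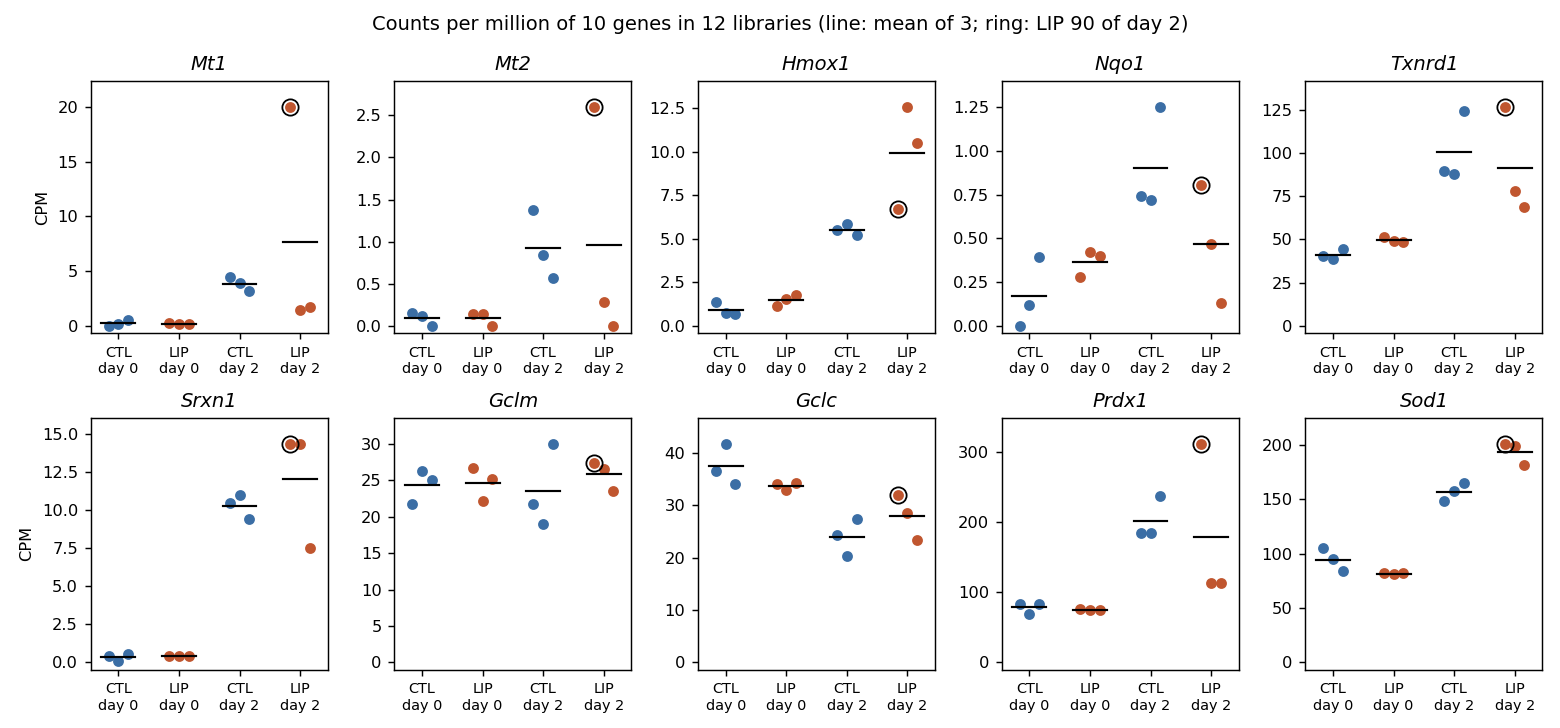
Level of each of the 10 genes in CPM (vertical axis, linear and scaled for each gene) in the 12 libraries, with 1 point per library, a line at the mean of each group of 3 and a ring around LIP 90 of day 2. LIP 90 is the highest of the 12 libraries for Mt1 (19.97 CPM), Mt2, Txnrd1, Prdx1, Sod1 and, by less than 0.1 CPM, Srxn1, while for Hmox1 the 2 other LIP libraries of day 2 are higher (12.5 and 10.5 against 6.72 CPM).

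The thioredoxin pathway genes were higher in cultured cells. Txnrd1 (ENSMUSG00000020250, chr10:82669785-82733546) encodes the cytosolic thioredoxin reductase, which recharges thioredoxin with electrons from NADPH. On day 0 it was at 40.2, 38.4 and 44.5 CPM in CTL 88, 89 and 94, against 51.3, 48.8 and 48.2 in LIP 92, 93 and 94. It was the only member that was higher in all LIP than in all CTL libraries of day 0, with a log2 fold change of 0.27 ± 0.09. On day 2 it was at 89.5, 88.02 and 125 CPM in CTL 92, 93 and 97, against 127, 78.4 and 68.7 in LIP 90, 96 and 97. LIP 90 again lay just above and the other two below every CTL library. The log2 fold change of LIP over CTL on day 2 was -0.16 ± 0.23, and -0.44 ± 0.16 without LIP 90, and turned to 0.030 without CTL 97 and 0.014 without LIP 97. From day 0 to day 2 the mean went from 41.0 ± 3.1 to 101 ± 20.8 CPM (SD, n = 3) in CTL and from 49.4 ± 1.6 to 91.2 ± 31.1 in LIP. In both groups the days did not overlap, and the log2 fold change between them was 1.296 ± 0.201 in CTL and 0.89 ± 0.20 in LIP, the latter 0.58 ± 0.14 without LIP 90.

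Prdx1 (ENSMUSG00000028691, chr4:116532123-116558398) encodes peroxiredoxin 1, a cytosolic enzyme that reduces hydrogen peroxide with electrons from thioredoxin. Its level on day 0 was 82.7, 69.3 and 83.4 CPM in CTL 88, 89 and 94, against 76.1, 74.1 and 75.1 in LIP 92, 93 and 94, which lay inside the CTL range. On day 2 it was at 185, 185 and 238 CPM in CTL 92, 93 and 97, against 312, 113 and 114 in LIP 90, 96 and 97. LIP 90 was 2.75 times the mean of LIP 96 and 97, which differed from each other by less than 1 CPM. The difference between the groups on day 2 was -0.19 ± 0.36 on the log2 scale with all libraries and -0.82 ± 0.13 without LIP 90, and turned to 0.065 without LIP 96 and 0.054 without LIP 97. Between the days Prdx1 differed by 1.37 ± 0.30 in CTL and 1.26 ± 0.30 in LIP, with no overlap, and the value in LIP was 0.60 ± 0.12 without LIP 90.

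Srxn1 (ENSMUSG00000032802, chr2:151947436-151957687) encodes sulfiredoxin, which restores peroxiredoxins that hydrogen peroxide has overoxidized. It had between 1 and 4 counts in each library of day 0. On day 2 it was at 10.5, 11.0 and 9.43 CPM in CTL 92, 93 and 97, against 14.3, 14.3 and 7.51 in LIP 90, 96 and 97. LIP 90 and LIP 96 were alike here, and LIP 97 lay below every CTL library. The log2 fold change between the days was 4.80 ± 0.39 in CTL and 4.83 ± 0.38 in LIP, again against a few counts on day 0. The difference between the groups on day 2 was 0.22 ± 0.25, with 0.12 ± 0.26 without LIP 90, 0.095 without LIP 96 and 0.47 without LIP 97.

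The 2 genes of glutathione synthesis did not follow the thioredoxin genes. Gclm (ENSMUSG00000028124, chr3:122039126-122065061) and Gclc (ENSMUSG00000032350, chr9:77661797-77701770) encode the modifier and the catalytic subunit of glutamate-cysteine ligase, the rate-limiting enzyme. Gclm was the one member whose libraries overlapped between the days, with little difference in mean, in both groups. It ranged from 21.7 to 26.2 CPM in CTL and from 22.1 to 26.7 in LIP on day 0, and from 19.0 to 30.0 and from 23.6 to 27.4 on day 2. The log2 fold change between the days was -0.05 ± 0.16 in CTL and 0.07 ± 0.16 in LIP, the latter turning to -0.25 with upper-quartile factors. Gclc was lower on day 2, at 24.2, 20.3 and 27.3 CPM in the CTL libraries against 36.5, 41.7 and 34.1 before culture, and at 31.9, 28.6 and 23.3 CPM in the LIP libraries against 34.0, 32.9 and 34.2. The days did not overlap in either group, with a log2 fold change of -0.64 ± 0.14 in CTL and -0.27 ± 0.14 in LIP. Neither gene separated the LIP from the CTL libraries on either day.

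Sod1 (ENSMUSG00000022982, chr16:90017408-90027657) encodes the copper and zinc superoxide dismutase of the cytosol. On day 0 it was at 105, 94.7 and 83.9 CPM in CTL 88, 89 and 94, against 81.7, 81.0 and 82.0 in LIP 92, 93 and 94. All LIP libraries were lower, although CTL 94 exceeded the highest of them by little. On day 2 it was at 149, 157 and 165 CPM in CTL 92, 93 and 97, against 201, 199 and 181 in LIP 90, 96 and 97. All LIP libraries were higher, and LIP 90 did not stand apart. The log2 fold change of LIP over CTL was -0.20 ± 0.09 on day 0 and 0.29 ± 0.11 on day 2, and 0.29 ± 0.10 on day 2 without LIP 90. From day 0 to day 2 the log2 fold change was 0.73 ± 0.10 in CTL and 1.25 ± 0.10 in LIP. In GENCODE the gene overlaps Scaf4 on the opposite strand, and whether counting used the strand of the reads is not given in the sources used here.

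**Figure D2:**
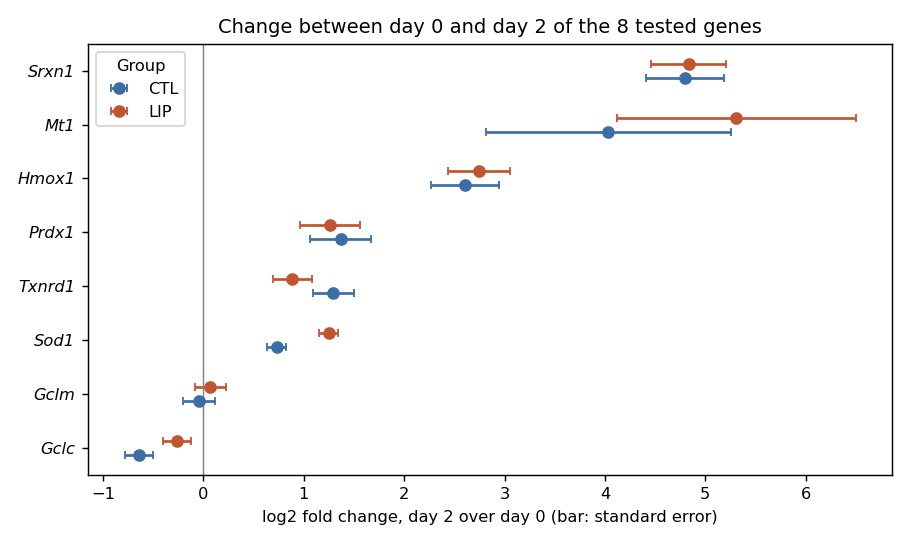
Log2 fold change of day 2 over day 0 (horizontal axis) of the 8 genes that could be tested, in CTL (blue) and LIP (orange), with bars of 1 standard error, from edgeR's fit of all 12 libraries. Srxn1 (4.80 in CTL) and Mt1 (4.03) lie farthest to the right, Gclm lies near 0 (-0.05 and 0.07) and Gclc is the member below 0 in both groups.

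With edgeR's quasi-likelihood test and Benjamini-Hochberg adjustment over all genes, 7 of the 8 members tested passed an adjusted p of 0.05 between the days in CTL, 6 of them higher and Gclc lower on day 2. In LIP, 6 of 8 passed, all higher. Without LIP 90, 7 of 8 passed in LIP, Gclc (-0.37 ± 0.14) in addition, and 69.3% of 15823 genes did. The same criterion was passed by 69% of the 15475 genes tested in CTL, 35.3% higher and 33.7% lower, and by 71.8% in LIP, 36.6% higher and 35.2% lower. Mt1 and Srxn1 had at most 4 counts in any library of day 0. They could pass the filter on low counts only through day 2, so the filter favoured a rise for them. With at least 10 counts required in every library, 4 of 5 members passed in each group, beside 71.3% of 11765 genes in CTL and 73.2% in LIP. In CTL, 8 of the 10 members were higher in every library of day 2 than in every library of day 0 and 1 was lower. The 8 include Mt2 and Nqo1, which were not tested. In LIP, 6 of the 10 were higher, 1 was lower and Mt2, Nqo1 and Gclm overlapped. Over all genes tested, the days lay apart for 73.3% in CTL (37.2% higher and 36.1% lower) and 74.8% in LIP (37.4% in each direction). DESeq2 called 6 of 8 members between the days in CTL and 5 of 8 in LIP, beside 66.9% and 69.6% of all genes.

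Between the groups, 0 of the 5 members tested on day 0 and 0 of the 8 tested on day 2 passed the adjusted threshold in edgeR's quasi-likelihood test. Over all genes, 0.427% of 14064 passed on day 0 and 0% of 14041 on day 2. At an unadjusted p under 0.05, 2 members passed on each day, against 13.9% and 16.5% of all genes. On day 0 the members not tested, because of low counts, were Mt1, Mt2, Hmox1, Nqo1 and Srxn1. The groups did not overlap for 2 of the 10 members on day 0 (Txnrd1 and Sod1) and for 2 on day 2 (Hmox1 and Sod1), where 19.1% and 21.5% of all genes tested lay apart. These members were among the 5 tested on day 0 and the 8 tested on day 2. The difference between the effect of LIP on day 2 and that on day 0 passed for 0 of 8 members and for 0.0517% of all genes. Without LIP 90 it passed for 3 of 8, Txnrd1 (-0.72 ± 0.19), Prdx1 (-0.77 ± 0.16) and Sod1 (0.49 ± 0.13), and for 10.1% of 15823 genes. DESeq2 called 0 members between the groups on either day, beside 1.44% and 3.45% of all genes, and 1, Sod1, in this difference, beside 3.36%. Among the members, Sod1 had the difference farthest from 0 in units of its SE, at 0.51 ± 0.14 on the log2 scale. On day 0, where 8 heat shock genes summed to between 1957 and 2170 CPM in CTL and between 940 and 1038 in LIP, the members tested differed by at most 0.27.

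LIP 90 lay above and LIP 96 and 97 below every CTL library of day 2 for 4 of the 10 members, Mt1, Mt2, Txnrd1 and Prdx1. This pattern was noticed in the values, and 6.6% of all genes tested on day 2 showed it. Mt2 was not among the genes tested. Without LIP 90, 3 of 8 members passed the adjusted threshold in the comparison of day 2, with Hmox1 higher and Mt1 and Prdx1 lower in LIP, where 13.9% of 14453 genes passed, 7.74% higher and 6.19% lower. The 5 B cell markers summed to 30.5 and 28.4 CPM in LIP 96 and 97, to 18.5 in CTL 97 and to at most 3.07 in every other library. All 5 had counts in LIP 96, LIP 97 and CTL 97, and Pax5 was at 0 in CTL 92 and LIP 90. Among the CTL libraries of day 2, CTL 97 was the highest for Txnrd1 and Prdx1 and the lowest for Mt1 and Mt2. The 7 T cell markers summed to between 3836 and 4230 CPM in the 6 libraries of day 2. What part B cells or the depth of LIP 90, the most deeply counted library, had in the split was not tested. In RNA of a cell population, fewer cells of a type cannot be told apart from less RNA per cell.

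**Figure D3:**
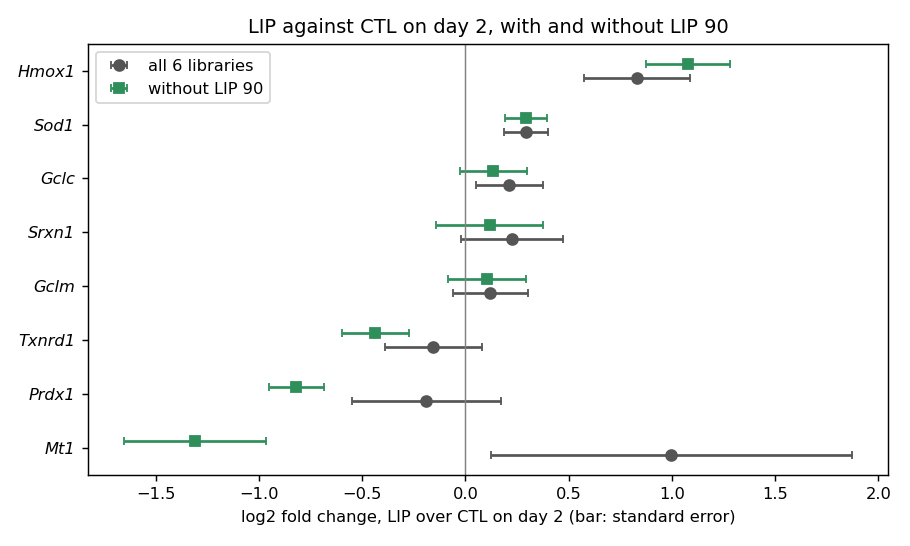
Log2 fold change of LIP over CTL on day 2 (horizontal axis, bars of 1 standard error) of the 8 genes tested, with all 6 libraries (grey circles) and without LIP 90 (green squares). Mt1 moves from 1.00 to -1.31 and Prdx1 from -0.19 to -0.82, whereas Sod1 stays at 0.29.

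A wider list of 104 genes of the same pathways, none of them a member, was followed in the same fits. Between the days, 66 of the 92 that could be tested changed in CTL (47 rose and 19 fell, 71.7%) and 69 in LIP (51 rose and 18 fell, 75.0%). By direction, 51.1% of the list rose and 20.7% fell in CTL, beside 35.3% higher and 33.7% lower over all genes, and 55.4% rose and 19.6% fell in LIP, beside 36.6% and 35.2%. The median log2 fold change of the list was 0.54 in CTL and 0.56 in LIP, beside -0.02 and -0.003 over all genes. Of 15 thioredoxin and peroxiredoxin genes tested in CTL, 9 rose and 4 fell. The span was wide, since Sesn2, a stress-induced sestrin, rose by 3.78 ± 0.27 (adjusted p = 5.48e-08 in edgeR's test) and Txnip, the inhibitor of thioredoxin and of glucose uptake, changed by -4.37 ± 0.19 (adjusted p = 8.29e-10). Txnip fell from between 1197 and 1499 CPM to between 58.3 and 71.4 in the CTL libraries.

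Of 19 glutathione genes tested, 10 rose and 3 fell in CTL. Gpx7, a peroxidase of the endoplasmic reticulum, had the largest change and was at or below 0.361 CPM in every CTL library of day 0 and between 1.59 and 2.63 on day 2. Oplah, which recycles the glutathione breakdown product oxoproline, changed by -2.49 ± 0.54 (adjusted p = 0.000971 in edgeR's test). Of 7 genes of NADPH supply, 5 rose and 0 fell, led by the transketolase gene Tkt at 1.83 ± 0.15 (adjusted p = 2.08e-07). Nnt, the mitochondrial transhydrogenase, had the lowest value of these, -0.61 ± 0.28, and did not pass (adjusted p = 0.0695 in edgeR's test).

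Of 9 heme and iron genes, 5 rose and 2 fell. Tfrc, the transferrin receptor through which dividing cells take up iron, rose by 4.91 ± 0.48 (adjusted p = 9.78e-07 in edgeR's test), and Fech, which inserts iron into heme, changed by -0.74 ± 0.10 (adjusted p = 1.51e-05). Of 20 metal handling genes, 10 rose and 4 fell. The zinc importer Slc39a8 rose by 2.77 ± 0.20 (adjusted p = 4.68e-08 in edgeR's test), from between 7.10 and 8.16 CPM to between 46.5 and 57.2. The zinc exporter Slc30a1, like Mt1 a textbook target of MTF-1, changed in the opposite direction to Mt1, by -2.24 ± 0.17 (adjusted p = 1.00e-07). Mtf1 itself was at 42.6 to 44.9 CPM on day 0 and 42.1 to 52.7 on day 2, a difference of 0.08 ± 0.11 that did not pass (adjusted p = 0.497 in edgeR's test).

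Of 11 genes of NRF2 regulation, 2 rose and 3 fell in CTL, and 7 rose and 2 fell in LIP. Whether these counts differ between the groups was not tested. Nfe2l2, which encodes NRF2, changed by -0.57 ± 0.16 in CTL (adjusted p = 0.00542 in edgeR's test), and its value in LIP was -0.19 ± 0.16 (adjusted p = 0.287). Keap1 differed by 0.30 ± 0.13 in CTL (adjusted p = 0.0501) and rose by 0.34 ± 0.13 in LIP (adjusted p = 0.0271 in edgeR's test). The repressor Bach1 changed by -0.80 ± 0.13 in CTL (adjusted p = 7.02e-05), while its lymphoid relative Bach2 rose by 1.49 ± 0.14 (adjusted p = 6.42e-07 in edgeR's test). Of 7 quinone and xenobiotic genes, 4 rose and 2 fell, between 1.45 ± 0.17 for the epoxide hydrolase gene Ephx1 (adjusted p = 5.79e-06 in edgeR's test) and -2.43 ± 0.56 for Osgin1 (adjusted p = 0.00165). Of 4 genes of superoxide and peroxide removal, 2 rose and 1 fell. Ccs, the chaperone that delivers copper to Sod1, rose by 1.02 ± 0.15 (adjusted p = 3.95e-05 in edgeR's test) and catalase, Cat, changed by -0.47 ± 0.15 (adjusted p = 0.0136).

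**Figure D4:**
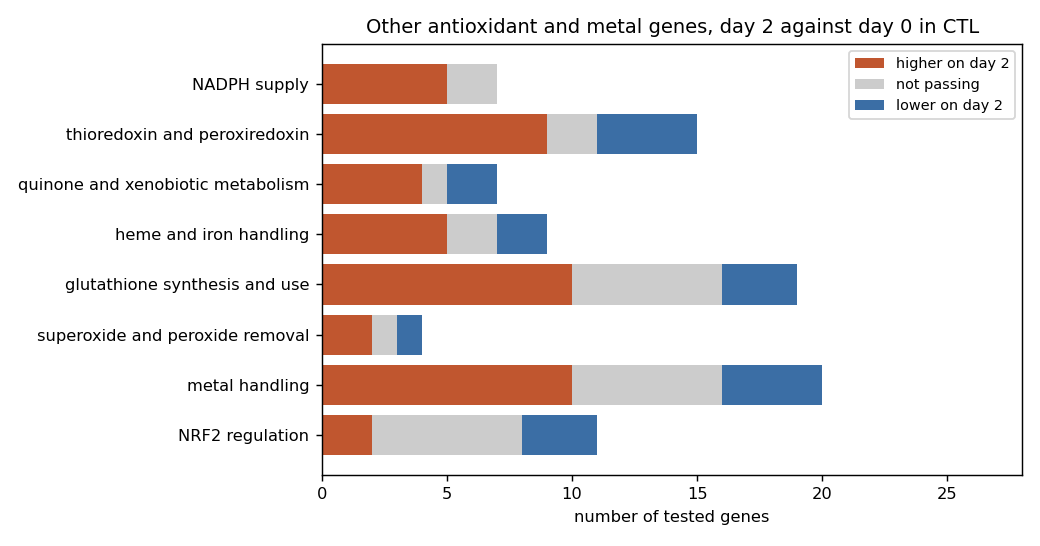
Number of tested genes (horizontal axis) in each of the 8 groups of the wider list that were higher on day 2 (orange), did not pass (grey) or were lower on day 2 (blue) in CTL at an adjusted p under 0.05. The thioredoxin and peroxiredoxin group has 9 higher and 4 lower of 15, and the NADPH supply group 5 higher and 0 lower of 7.

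Between LIP and CTL, 0 of 88 genes of the wider list passed the adjusted threshold in edgeR's test on day 0 and 0 of 90 on day 2. At an unadjusted p under 0.05, LIP was above CTL for 6 and below it for 7 of the 88 on day 0, beside 6.67% and 7.2% of all genes, and above for 12 and below for 6 of the 90 on day 2, beside 8.33% and 8.2%. DESeq2 called 3 on day 0, Fth1, Prdx6 and Txnip, all lower in LIP, beside 1.44% of all genes, and 6 on day 2, beside 3.45%. Those of day 2 were Chac1, Slc7a11, Slc3a2, Sqstm1 and Nfe2l1, higher in LIP, and Ephx1, lower. Without CTL 94, edgeR called 4 on day 0, Hmox2, Fth1, Prdx6 and Maff, also all lower, beside 4.59% of 14343 genes in either direction and 2.8% lower, and without LIP 90 it called 23 of 92 on day 2, beside 13.9% of 14453 genes. These names were chosen after the calls of these alternatives were seen. The median difference of the list was 0.02 on day 0 and -0.01 on day 2. The difference between the days in the effect of LIP passed for 0 of 92 genes, with 11 higher and 8 lower at an unadjusted p under 0.05, beside 8.65% and 7.28% of all genes, and 8 called by DESeq2, beside 3.36%.

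Among the 5 genes whose profiles over the 12 libraries were most like that of Mt1 were Atp7b, a copper transporter, Pgam1, a glycolytic enzyme, Gm17034 and Gcat. Likeness was the root mean square difference between profiles of log2(CPM + 0.5), each centred on its own mean, and it was 0.50, 0.50, 0.55 and 0.55 for these genes, beside a median of 1.61 over the 15474 genes compared. Pgam1 was at 416, 384 and 453 CPM in CTL 92, 93 and 97 of day 2 and at 655, 239 and 203 in LIP 90, 96 and 97. Atp7b was at 6.66, 5.02 and 4.66 CPM in the same CTL libraries and at 7.25, 1.22 and 1.04 in the LIP libraries. In both, LIP 90 lay above and LIP 96 and 97 below every CTL library. For Txnrd1 the closest were Aifm1, Nup155, Wdr61, Atad3a and Jpt2, each at 0.13, beside a median of 0.73. The points share their libraries, and no test was attached to these values.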

How the data were processed

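The study sequenced RNA of CD4+ T cells from the spleen, and each of the 12 libraries was placed in its group by its sample title. The authors trimmed reads with Trimmomatic after FastQC 0.11.9 and mapped them to GRCm39 with HISAT2. The values they deposited are expected counts for each gene from RSEM 1.3.0, which used Bowtie2, and no normalization had been applied. The submitters' processing notes give version 0.38 of Trimmomatic. The authors also deposited a table for each day with a normalized signal per library, log2 fold changes and p-values of their own comparison. Their comparisons were not used, and symbols and other annotation were taken from these tables. The LIP columns of the day 2 table are numbered 88, 89 and 90, so LIP 96 and 97 are not among them, and the 2 columns that match no labelled sample were left aside.

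Expected counts were rounded, and edgeR 4.0.16 under R 4.3.3 was applied to them (filterByExpr, TMM, quasi-likelihood test, Benjamini-Hochberg adjustment over all genes tested). Each day was fitted alone for LIP against CTL, and all 12 libraries together for the days and for the interaction. CPM used the TMM factors of all 12 libraries. SE is the log2 fold change divided by the square root of the F statistic. Positions are from GENCODE release M39 and promoters from RefSeq. DESeq2 1.42.0, RLE and upper-quartile factors, other filters, all 12 libraries in one fit and leaving out each library were the alternatives. The scripts were tested on simulated data.

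The members and the lists were chosen with earlier results of these data known. All members are named. From the wider list, the genes with the largest and smallest change of day 2 over day 0 in CTL in each of the 8 groups are named, with Mt3, Mt4, Mtf1, Slc30a1, Nfe2l2 and Keap1 always and any gene called between the groups or in the interaction by edgeR with all libraries of the fit, of which there were 0. For Mt1 and Txnrd1, the 5 genes with the most similar profiles were selected, of which not all are reported here. The cells were checked against lists of markers, of which 7 genes of myeloid cells summed to at most 13.5 CPM, 4 of CD8 T or NK cells to at most 15.8 and 6 of pancreatic acinar cells to at most 10.3 in any library.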

Additional observations from a re-analysis of the deposited data

Results flagged for a closer look

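The difference in Sod1 between LIP and CTL had opposite signs on the 2 days, and it did not pass the adjusted threshold on either day in edgeR's test. Every LIP library lay below every CTL library on day 0 and above every CTL library on day 2, and the difference between the 2 effects was 0.51 ± 0.14 on the log2 scale. The groups lay apart in this way, in either direction, for 19.1% of all genes tested on day 0 and 21.5% on day 2. With all 12 libraries the difference between the effects did not pass the adjusted threshold over all genes in edgeR's test, whereas DESeq2 called it, and Sod1 was chosen with its values known. Leaving out any 1 library gave a difference between 0.43 and 0.57.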

How the results depend on the processing

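No paired analysis was possible because the groups compared share at most 1 replicate number. Between LIP and CTL, the genes called on day 0 numbered 60, and 202 with DESeq2, 645 with no filter on low counts and 12 with all 12 libraries in one fit. On day 2 they numbered 0, and 485 with DESeq2, 662 with no filter, 1 with at least 10 counts in every library and 775 with all 12 libraries in one fit. The interaction gave 8, and 520 with DESeq2 and 815 with no filter. Of the wider list, 0 were called in each, against 3 with DESeq2 and 5 with no filter on day 0, 6 with DESeq2, 9 with no filter and 8 in one fit on day 2, and 8 with DESeq2 and 6 with no filter in the interaction. The cause was not tested. Leaving out 1 library gave 13 (without LIP 93) to 658 genes (without CTL 94) on day 0, 0 to 2014 on day 2 and 1 to 1596 in the interaction (both highest without LIP 90), and 0 to 4, 0 to 23 and 0 to 19 genes of the wider list. Between the days it gave 10058 to 11268 genes in CTL and 10298 to 11280 in LIP, and 62 to 74 and 63 to 71 of the list. Upper-quartile factors moved the median of all genes between the days to -0.31 in CTL and -0.32 in LIP, with 4259 genes higher and 6827 lower in CTL and 4293 and 7084 in LIP, where TMM gave 5456 and 5220, and 5665 and 5446. Under them Gclm was at -0.25 between the days in LIP. Of 555 fold changes of members under alternatives, 528 moved by less than their spread, and 12 of 37 changed sign under at least 1 alternative, namely the day differences of Gclm and 10 differences between LIP and CTL or in the interaction. Counts of a few reads limit Mt2, Nqo1 and the values of Mt1 and Srxn1 on day 0.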

Other observations

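Chac1, Slc7a11 and Slc3a2 were higher in LIP 96 and 97 than in the other libraries of day 2. Chac1, an enzyme that degrades glutathione, was at 42.0 and 40.4 CPM in LIP 96 and 97, at 2.87 in LIP 90 and at 1.27, 1.67 and 0.57 in CTL 92, 93 and 97. Slc7a11, the cystine importer, was at 14.1 and 11.7 CPM in LIP 96 and 97, at 2.24 in LIP 90 and at 1.48, 2.15 and 1.82 in the CTL libraries. Its partner chain Slc3a2 was at 320 and 298 CPM in LIP 96 and 97, at 114 in LIP 90 and between 87.9 and 105 in the CTL libraries. The iron uptake receptor Tfrc was lower in LIP 96 and 97 than in the other libraries of day 2. It was at 286 and 569 CPM in LIP 96 and 97, at 1614 in LIP 90 and between 1118 and 1312 in the CTL libraries. For all 4 genes LIP 90 lay above every CTL library. The summed level of the 5 B cell markers was also highest in LIP 96 and 97, at 30.5 and 28.4 CPM, beside 18.5 in CTL 97 and at most 3.07 in the other libraries, and their part in these values was not tested. In edgeR's fit of the 6 libraries of day 2, none of the 4 genes passed the adjusted threshold between the groups, whereas Chac1, Slc7a11 and Slc3a2 passed with all 12 libraries in one fit and with no filter on low counts. Without LIP 90, 23 of 92 genes of the wider list passed, beside 13.9% of 14453 genes, with log2 fold changes of 5.15 ± 0.25 for Chac1, 2.84 ± 0.25 for Slc7a11, 1.73 ± 0.11 for Slc3a2 and -1.51 ± 0.25 for Tfrc. Of the 23 genes of the glutathione group, tested or not, 8 passed without LIP 90. Among these, 4 were higher in LIP, the fourth being Mgst2 at 0.69 ± 0.20, and 4 were lower, Gpx1 (-1.15 ± 0.19), Gstm1 (-1.64 ± 0.36), Gpx7 (-1.75 ± 0.47) and Glrx5 (-0.81 ± 0.15). Over all genes tested in that fit, 7.74% passed as higher and 6.19% as lower. These genes, and the library left out, were singled out after their values were seen.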
